A study of Mus musculus with 2 samples.

Results

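The ribosomal proteins of the cytosol were followed through the cell classes of the mouse heart at stage E10.5. Their genes were chosen by symbol. Rows named Rpl or Rps with a number, with or without a closing a, x, y or l, were taken, and so were Rpsa, Rplp0, Rplp1 and Rplp2, while S6 kinases and pseudogenes were left out. In all, 83 rows of 32285 matched, and 82 had at least 20 unique molecular identifiers (UMIs, each standing for 1 captured RNA molecule) over both libraries. The 82 genes comprise 50 of the large subunit and 32 of the small subunit. Of these, 5 are paralogs that can stand in for a partner gene (Rpl3l, Rpl7l1, Rpl22l1, Rpl39l and Rps27l), which leaves 77 standard genes. Rpl10l was the row under the minimum. Fau, Rack1, Rpl36al and Rps27rt lie outside the symbol pattern and are given separately.

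A ribosome carries 1 copy of nearly every ribosomal protein, so cells make these proteins in matched amounts, and surplus proteins that find no ribosomal RNA are degraded. The messenger RNAs begin with a C followed by a run of pyrimidines, the TOP start, through which Larp1 and the kinase mTORC1 set their translation and stability together. In embryonic hearts the genes are highly active in all cell types, and erythroid cells are known to be sensitive to a shortage of single ribosomal proteins, as in Diamond-Blackfan anaemia.

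The start sequences were read from annotated promoters. RefSeq (build GRCm38.p6) gave 74 promoters of 300 bases for 62 of the 82 genes. A C at the start base followed by at least 4 bases that are each C or T stood in 13 of these promoters (17.6%), against 823 of all 32851 mouse promoters (2.51%). The sequences of 8 genes are shown because they differ in how far their RNA differed between the libraries, from Rpl38, Rpl35, Rps21 and Rps27 at the high end to Rps10 and Rps6 at the low end. Each runs 5′ to 3′ from 10 bases before the annotated start to 20 bases from it, and capitals mark the run of pyrimidines that opens at the start base.
Rpl35, chr2:39005112-39005141, minus strand: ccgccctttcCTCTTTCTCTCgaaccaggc
Rps21, chr2:180257369-180257398, plus strand: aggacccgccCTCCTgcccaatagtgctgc
Rps27, chr3:90213629-90213658, minus strand: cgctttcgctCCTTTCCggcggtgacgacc
Rps6, chr4:86857348-86857377, minus strand: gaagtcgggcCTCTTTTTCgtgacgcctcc
Rpl38, chr11:114668570-114668599, plus strand: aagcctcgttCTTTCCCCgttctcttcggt
Rpl15, chr14:18270967-18270996, minus strand: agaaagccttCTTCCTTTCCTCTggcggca
Rpl35a, chr16:33056472-33056501, plus strand: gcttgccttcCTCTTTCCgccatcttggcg
Rps10, chr17:27635225-27635254, minus strand: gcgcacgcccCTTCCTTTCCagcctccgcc

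On either strand of the same windows, ACTTCCG stood in 29.7% of the ribosomal protein promoters and 6.42% of all, AAGATGGC in 10.8% and 2.75%, and GGGCGG in 59.5% and 35.7%. TATAAA was the motif found in a smaller share, at 9.46% against 13.6%. These are matches of letters, and ACTTCCG and AAGATGGC are the cores known for Ets factors and YY1. Among standard genes with a promoter, the 13 with the pyrimidine start had a median log2 ratio of knockout over wildtype of 0.53 in cardiomyocytes, against 0.36 in the 44 without it. These medians were 0.45 and 0.32 in endothelial, 0.25 and 0.06 in mesenchymal and 0.27 and 0.19 in epicardial barcodes, so they stood in the same order in each. Coding length, against which these ratios are read below, was not matched between the sets. Whether this order goes with the start or with length was not tested. Start positions follow the RefSeq models, which need not be the starts used in these cells.

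Each group was 1 droplet library of 3′ transcript ends from 4 pooled hearts. The genotypes, as labelled, were BubR1+/+ ; Nkx2.5-cre (het) for wildtype and BubR1fl/fl ; Nkx2.5-cre (het) for knockout, so both carried Cre from 1 Nkx2.5 allele and all embryos spent 3 hours on ice while they were genotyped. BubR1, encoded by Bub1b, holds chromosome separation back until the spindle is attached, and the study asked what its loss does to heart cells. The Nkx2.5 driver is known to be active in cardiac progenitors, and in which barcodes Cre had acted was not measured. With 1 library per group no test of the genotype was possible, no p-value is given, and genotype, pool and library cannot be told apart. Intervals are exact, at 95%, and cover counting error only.

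The library labelled wildtype kept 7440 barcodes with a median of 9504.5 UMIs and 79400375 UMIs in all, and the library labelled knockout kept 5966 with a median of 17042.5 and 110829003 in all. Barcodes were gated by marker genes into classes, each being a range of a score and not a type proven by other means. In the 6 classes compared, 2 to 61 barcodes per library lay within 0.1 above the margin that sets the gate. At least 2 of each class's own markers stood among the 10 leading genes in each library, and never more than 1 of another class. Summed markers of other classes had medians below the class's own in 5 classes, but in epicardial barcodes they were at 3740 CPM (UMIs scaled to a common total of the class) against 2944 for its own in the library labelled wildtype, and at 3152 against 2647 in the other. Bub1b read 56.4 CPM in cardiomyocytes labelled wildtype (609 UMIs) and 32.1 CPM in those labelled knockout (416 UMIs). It was lower in macrophages labelled knockout too (73.1 and 25.4 CPM), but not in endothelial (24.4 and 33.5 CPM), mesenchymal (49.6 and 51.3 CPM), epicardial (24.5 and 44.6 CPM) or erythroid barcodes (4.92 and 34.3 CPM). The floxed exons are not given in the labels, so 3′ counts of Bub1b do not check the genotype. The libraries shared 8 barcode sequences.

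Ribosomal protein RNA took a larger share of the UMIs in the library labelled knockout in each of the 6 classes. The difference was largest in erythroid barcodes, where the share was 3.33% in the library labelled wildtype and 17.8% in the other. It was smallest in cushion and outflow mesenchymal barcodes, at 14.4% and 15.4%. Over all kept barcodes the shares were 11.2% and 17.4%.

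In cardiomyocytes, the contracting cells of the heart wall, 11.3% of UMIs came from these genes in 685 barcodes labelled wildtype and 14.6% in 595 labelled knockout, a log2 ratio of 0.37. The upper quartile over barcodes of the first library, 13.4%, lay above the lower quartile of the second, 12.1%, so the barcodes overlapped, while 85.4% of those labelled knockout lay above the median of the others. Endothelial and endocardial barcodes, which line the vessels and chambers, gave 14.4% and 18.3% (1373 and 734 barcodes), a log2 ratio of 0.34. Mesenchymal barcodes, which form the valve cushions and outflow tract, differed by 0.10 on the log2 scale with 1134 and 380 barcodes, and 64.2% of those labelled knockout lay above the median of the others. Epicardial barcodes, the outer sheet of the heart, gave 15.3% and 17.3% (827 and 2012 barcodes) and a log2 ratio of 0.18. Macrophages gave 13.3% and 19.0%, a log2 ratio of 0.52, on 271 barcodes against 39.

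**Figure D1:**
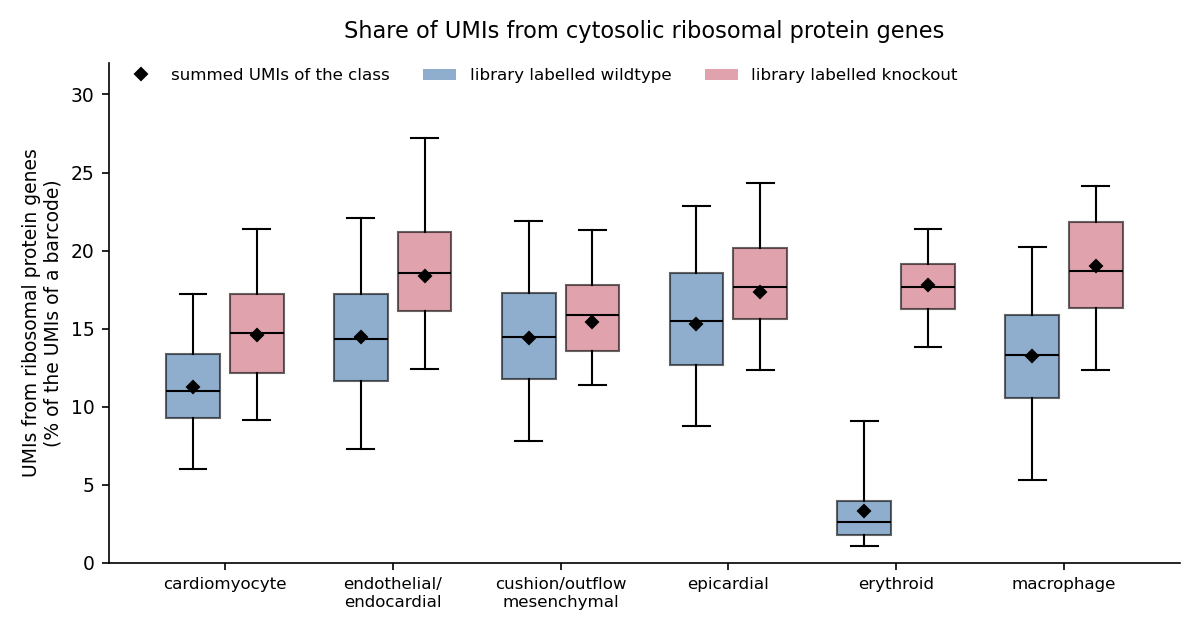
UMIs from the 82 ribosomal protein genes as a percent of the UMIs of a barcode (vertical axis) for 6 marker-gated classes and both libraries. Boxes span the quartiles over barcodes with the median inside, whiskers run from the 5th to the 95th percentile, and diamonds give the share of the summed UMIs, which in erythroid barcodes was 3.33% in the library labelled wildtype and 17.8% in the library labelled knockout.

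The barcodes of the library labelled knockout were deeper, and among epicardial barcodes the deeper ones had a lower share, so the classes were also read within bands of depth. In the band from 12000 to 24000 UMIs epicardial barcodes gave 13.8% (177 barcodes) and 17.9% (1391 barcodes), a log2 ratio of 0.38. In the band from 6000 to 12000 UMIs they gave 16.2% and 21.0%, a ratio of 0.37. Cardiomyocytes gave 0.37 from 6000 to 12000 UMIs and 0.39 from 12000 to 24000 UMIs, close to the epicardial values, and mesenchymal barcodes 0.12 and 0.17. From 3000 to 6000 UMIs the ratios were larger and further apart: cardiomyocytes gave 12.3% (75 barcodes) and 21.2% (27 barcodes), a ratio of 0.79, and epicardial barcodes 16.1% (158) and 23.5% (32), a ratio of 0.55. Free RNA, read from barcodes of 10 to 100 UMIs, also differed: ribosomal protein genes made up 6.80% of it in the library labelled wildtype and 12.7% in the other, while mitochondrial transcripts made up 33.2% and 19.0%. Hemoglobin UMIs in cardiomyocytes were 4.98% and 1.24%, and in the other non-erythroid classes 3.58% to 8.17% against 0.16% to 0.80%. With hemoglobin and mitochondrial UMIs out of the total, the log2 ratios became 0.31 in cardiomyocytes, 0.30 in endothelial, 0.06 in mesenchymal, 0.13 in epicardial and 0.40 in macrophage barcodes. Subtracting free RNA, estimated at 1.58% to 3.01% of the UMIs of a class, gave log2 ratios of 0.36, 0.33, 0.08, 0.17 and 0.50 in the same order. The estimate divided the hemoglobin share of the median barcode by that of free RNA, 11.1% in the library labelled wildtype and 5.93% in the other. In the library labelled wildtype it thus left most of the summed hemoglobin in place.

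Gene by gene, the shift was broad and small. Of 80 ribosomal protein genes that reached 20 UMIs in a class, 79 were above 0 on the log2 scale in cardiomyocytes and in endothelial barcodes, 52 in mesenchymal and 67 in epicardial barcodes, and all 81 counted in macrophages. Of all genes with that minimum, 56.4%, 41.9%, 45.3%, 48.4% and 49.8% were above 0 in that order of classes. The ribosomal protein genes had median log2 ratios of 0.37, 0.34, 0.10, 0.20 and 0.51 in that order, beside medians over all genes of 0.05, -0.08, -0.06, -0.02 and -0.00. Other nuclear genes of at least 500 CPM, hemoglobin left out, nearer to the members in level, had medians of 0.04, 0.19, 0.29, 0.19 and 0.30. Against these the ribosomal protein genes were higher in cardiomyocyte, endothelial and macrophage barcodes, lower in mesenchymal barcodes and about level in epicardial barcodes. Large and small subunit did not separate: the medians over the standard genes were 0.33 and 0.38 in cardiomyocytes, 0.33 and 0.35 in endothelial, 0.10 and 0.07 in mesenchymal and 0.20 and 0.19 in epicardial barcodes. Of the 77 standard genes, 47 were above 0 in each of the 5 classes other than erythroid, and 0 were below 0 in all 5. The same was not counted over all genes.

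Counts past a ratio of 1.5 were read against the same count over all genes. In cardiomyocytes 15 of 80 (18.8%) were at least 1.5-fold higher in the library labelled knockout, beside 10.8% of all 14000 genes, and 0 were that much lower, beside 10.4%. This excess depended on the scale: with hemoglobin and mitochondrial UMIs out of the total 8 of 80 (10%) passed beside 9.32% of all genes, and relative to the median gene of the class 8 of 80 beside 9.58%. In endothelial barcodes 11 of 80 (13.8%) were higher, beside 6.78%, and 0 lower, beside 17%. Mesenchymal barcodes had 3 of 80 higher (3.75%) beside 8.97%, and 0 lower beside 21%, while epicardial barcodes had 2 of 80 higher (2.5%) beside 14.6%, and 0 lower beside 20.7%. In these last 2 classes fewer ribosomal protein genes than genes at large passed in either direction. Macrophages had 33 of 81 higher (40.7%) beside 16.5%, and 0 lower beside 20%. With hemoglobin and mitochondrial UMIs out of the total they had 13 of 81 (16%) beside 11.9%. In erythroid barcodes all 81 were higher beside 80.5% of all genes, and 0 were lower beside 6.24%. The standard genes are deeply counted, each with at least 142292 UMIs over all kept barcodes, whereas many of the other genes are thinly counted.

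**Figure D2:**
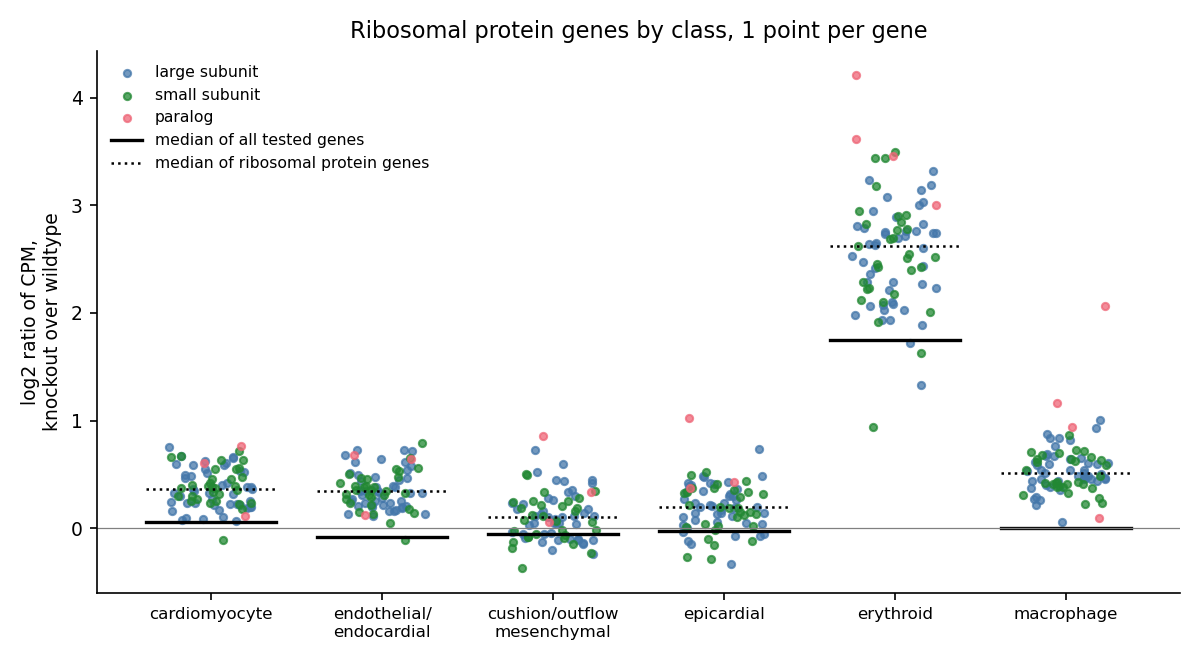
The log2 ratio of CPM, knockout over wildtype (vertical axis), for each ribosomal protein gene with at least 20 UMIs in 6 classes. Points are genes coloured by subunit or as paralogs, the solid line is the median over all tested genes and the dotted line that over ribosomal protein genes, which was 0.37 beside 0.05 in cardiomyocytes and 2.62 beside 1.75 in erythroid barcodes.

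The genes with the largest ratios in the solid tissue of the heart encode short proteins. Rpl41 (chr10:128548114-128549305, minus strand, GRCm38), whose product is a peptide at the contact of both subunits, read 1849 CPM in cardiomyocytes labelled wildtype and 2918 CPM in those labelled knockout, a log2 ratio of 0.66 (interval 0.63 to 0.68). Its values were 1985 and 3286 CPM in endothelial, 2146 and 3547 CPM in mesenchymal and 2364 and 3926 CPM in epicardial barcodes, with log2 ratios of 0.73, 0.72 and 0.73. Rpl41 thus lay between 0.66 and 0.73 in 4 classes whose median member lay between 0.10 and 0.37. Rpl41 and the paralog Rps27l were the members at least 1.5-fold higher in all 4.

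In cardiomyocytes Rpl37 followed Rps27l, at 907 and 1533 CPM with a log2 ratio of 0.76. Rps21 stood at 714 and 1170 CPM with 0.71, Rpl37a at 967 and 1543 CPM with 0.67, and Rps28, at the site where messenger RNA leaves the small subunit, at 850 and 1352 CPM with 0.67. All 4 have coding sequences of at most 291 bases. In endothelial barcodes Rps28 was the highest member, at 1116 and 1930 CPM with 0.79, next to Rpl38 with 0.73 and Rpl36 with 0.71. Rpl38, a protein known in mice from a skeletal patterning mutant, also stood high in mesenchymal barcodes with 0.60. It was joined there by Rpl35, at the tunnel exit, with 0.52 and Rps29 with 0.50. In epicardial barcodes Rps21 with 0.52, Rps25 with 0.49 and Rpl36 with 0.48 followed Rps27l and Rpl41.

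At the other end stood Rps2 (chr17:24718116-24721929, plus strand), a protein at the entry of the messenger RNA channel. It was the lowest member in 3 classes: 1997 and 1850 CPM in cardiomyocytes with a log2 ratio of -0.11 (interval -0.14 to -0.08), 2229 and 2063 CPM in endothelial barcodes with -0.11, and 2114 and 1633 CPM in mesenchymal barcodes with -0.37. Epicardial barcodes went the other way, at 2084 and 2388 CPM with 0.20, as did macrophages with 0.22. Rpl23a, where nascent chains emerge, and Rpl5 were next lowest in mesenchymal barcodes, with -0.24 and -0.20, together with Rps4x with -0.23. In epicardial barcodes the lowest were Rpl10, one of the last proteins to join the large subunit, at 1199 and 954 CPM with -0.33, then Rps7 with -0.29, Rps4x with -0.27, Rps3 with -0.16 and Rpl7 with -0.15. In endothelial barcodes Rps7 stood at 0.05, Rpl10 at 0.11 and Rpl13a at 0.13. Rpl10 is also among the members that have a near-identical copy in the annotation, as are Rps27, Rpl9, Rpl36a and Rpl36, so their counts are less certain.

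Ordering the standard genes by coding length made the pattern plain. In cardiomyocytes the 9 genes of up to 300 coding bases had log2 ratios between 0.48 and 0.76 with a median of 0.66. The 27 genes over 300 and up to 450 bases had a median of 0.45, the 19 up to 600 bases 0.30, the 19 up to 900 bases 0.24 and the 3 longer ones 0.10. The medians of these groups, from short to long, were 0.64, 0.45, 0.24, 0.25 and 0.22 in endothelial barcodes, 0.45, 0.21, 0.05, -0.08 and -0.11 in mesenchymal barcodes, and 0.43, 0.32, 0.04, 0.11 and 0.14 in epicardial barcodes. In the mesenchymal class the groups thus lay on both sides of 0. Macrophage medians were 0.76, 0.60, 0.41, 0.44 and 0.54, so above 600 bases they rose again, as in epicardial barcodes.

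Across the 77 genes, Spearman's rho of coding length with the log2 ratio was -0.75 in cardiomyocytes, -0.80 in endothelial, -0.78 in mesenchymal, -0.63 in epicardial and -0.45 in macrophage barcodes. These points are genes of the same pair of libraries and not independent replicates. The order held within each subunit: rho was -0.75 for 46 large and -0.73 for 31 small subunit genes in cardiomyocytes, and -0.82 and -0.72 in endothelial barcodes. Genes other than ribosomal protein genes with at least 200 UMIs gave rho between -0.02 and -0.26 in these 5 classes. In endothelial barcodes the 198 others of up to 300 coding bases had a median of 0.29 and the 451 of 300 to 450 bases 0.11, below the 0.64 and 0.45 of the ribosomal protein genes. In mesenchymal barcodes they stood at 0.36 and 0.24, beside 0.45 and 0.21. Other nuclear genes of up to 450 coding bases and at least 500 CPM (40 to 58 genes a class) had medians of 0.07 in cardiomyocytes, 0.35 in endothelial, 0.55 in mesenchymal and 0.41 in epicardial barcodes, so in the mesenchymal class these stood above the ribosomal protein genes of either length group. Free RNA showed the order as well, with rho of -0.57 over the 77 genes and medians of 1.08 for the shortest group and 0.74 for that over 600 and up to 900 bases. Coding length was looked at after the ratios were known, and what moves with it was not tested.

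**Figure D3:**
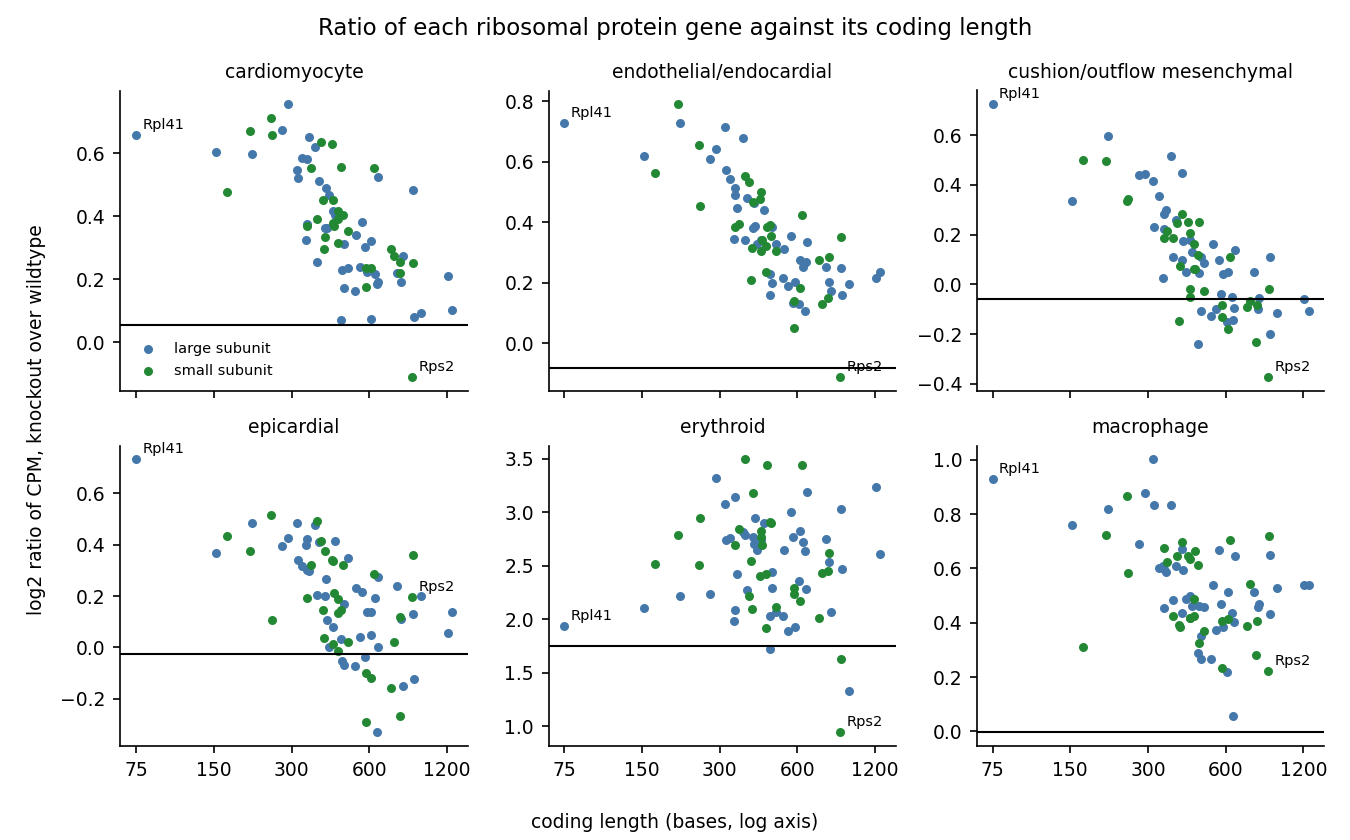
The log2 ratio of CPM, knockout over wildtype (vertical axis, its own range in each panel), against coding length in bases (log axis) for 77 standard ribosomal protein genes in 6 classes. The line marks the median over all tested genes. Longer genes tended to lie lower in the classes other than erythroid, with Spearman's rho of -0.75 in cardiomyocytes, -0.45 in macrophages and -0.14 in erythroid barcodes. In epicardial and macrophage barcodes the decline did not continue above 600 bases. Endothelial medians were nearly level over the 3 longest groups, at 0.24, 0.25 and 0.22.

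In the 5 classes other than erythroid, 21 genes lay above the median ribosomal protein gene in each class and 24 lay below it in each. The first set, with Rpl41, Rpl38, Rpl37, Rps28, Rps21 and Rplp2, had a median coding length of 345 bases and a range from 75 to 624 bases. The second, with Rps2, Rpl5, Rps3, Rps7, Rpl10 and Rps4x, had a median of 598.5 bases and a range from 399 to 891 bases.

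Proteins that work together were read as groups. The 5S particle, in which Rpl5 and Rpl11 carry 5S ribosomal RNA and, when free, hold back Mdm2, had log2 ratios in cardiomyocytes of 0.08 for Rpl5 and 0.34 for Rpl11, within a range over all members of -0.11 to 0.77. In mesenchymal barcodes the pair stood at -0.20 and 0.16. The P stalk, which draws elongation factors to the ribosome, had 0.09 for Rplp0, 0.32 for Rplp1 and 0.38 for Rplp2 in cardiomyocytes. In epicardial barcodes they were 0.20, 0.40 and 0.42. Of 8 proteins of the peptide tunnel and its exit, 2 were at least 1.5-fold higher in cardiomyocytes, Rpl35 with 0.62 and Rpl39 with 0.60, beside 10.8% of all genes, and the list's median was 0.25. In endothelial, mesenchymal and epicardial barcodes 2, 0 and 0 of the 8 passed, beside 6.78%, 8.97% and 14.6% of all genes.

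Along the messenger RNA path and the decoding site, 2 of 7 passed in cardiomyocytes, Rps28 with 0.67 and Rps23 with 0.63, whereas Rps2 stood at -0.11. In endothelial, mesenchymal and epicardial barcodes 1, 0 and 0 of the 7 passed, and the shares of all genes are those given for the tunnel proteins. The list's medians were 0.32, 0.27, 0.06 and 0.19 in the 4 classes. Rps6, the subunit that S6 kinases phosphorylate, read 917 and 1108 CPM in cardiomyocytes, a log2 ratio of 0.27, and -0.07 and 0.02 in mesenchymal and epicardial barcodes. The 9 genes mutated in Diamond-Blackfan anaemia had medians of 0.34, 0.31, 0.07 and 0.04 in these classes. Of them Rps19, the one most often mutated, stood at 0.45, 0.31, -0.05 and 0.01. Rpl35a with 0.59 was the single gene of that list past 1.5-fold in cardiomyocytes, 1 of 9 beside 10.8% of all genes. This is near the share of genes at large. In the other 3 classes 0 passed, beside 6.78%, 8.97% and 14.6% of all genes.

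Rps27a, which makes a ribosomal protein joined to ubiquitin, read 2114 CPM in cardiomyocytes labelled wildtype and 3112 CPM in those labelled knockout, a log2 ratio of 0.56. Fau, whose product is joined to a ubiquitin-like protein, read 1444 and 1999 CPM, a ratio of 0.47. In mesenchymal and epicardial barcodes Rps27a stood at 0.12 and 0.15 and Fau at 0.29 and 0.17. Rpl36al stood at 0.34 to 0.54 in the 4 classes and Rack1, a scaffold on the small subunit, between -0.09 and 0.21.

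Rps27l (chr9:66946086-66949516, plus strand), a paralog of Rps27 known as a p53 target, had the largest ratio of any well-counted member in cardiomyocytes, mesenchymal and epicardial barcodes. It read 396 and 675 CPM in cardiomyocytes, 330 and 598 CPM in mesenchymal barcodes and 257 and 522 CPM in epicardial barcodes. The log2 ratios were 0.77, 0.86 and 1.03, and 0.64 in endothelial barcodes. As a share of the UMIs of both paralogs it was 40.1% and 41.9% in cardiomyocytes, where the intervals nearly touched (39.1% to 41.0% and 41.2% to 42.6%). In epicardial barcodes the shares were 18.7% (18.0% to 19.5%) and 30.3%, and in mesenchymal barcodes 27.5% and 35.2%. The class order also differed: within the library labelled wildtype, cardiomyocytes had the highest Rps27l share and epicardial barcodes the lowest of the 6 classes. A near-identical copy of Rps27 named Rps27rt is counted apart from both, at -0.29 in epicardial barcodes.

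Rpl22l1 (chr3:28805436-28807424, plus strand), the paralog of Rpl22, read 477 and 727 CPM in cardiomyocytes and 563 and 902 CPM in endothelial barcodes, with log2 ratios of 0.61 and 0.68. Rpl22 stood nearly as high, at 0.51 and 0.48, so the paralog's share of the pair was 40.4% and 42.0% in cardiomyocytes and 45.1% and 44.4% in epicardial barcodes. Macrophages gave 33.4% and 42.4%. Erythroid barcodes stood far apart, at 17.0% (15.7% to 18.3%) in the library labelled wildtype and 43.9% in the other. Rpl7l1, a nucleolar relative of Rpl7, supplied 3.56% to 6.16% of its pair in the 5 main classes other than erythroid, and its ratio was 0.43 in epicardial barcodes while the intervals of the other 4 classes held 0.

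**Figure D4:**
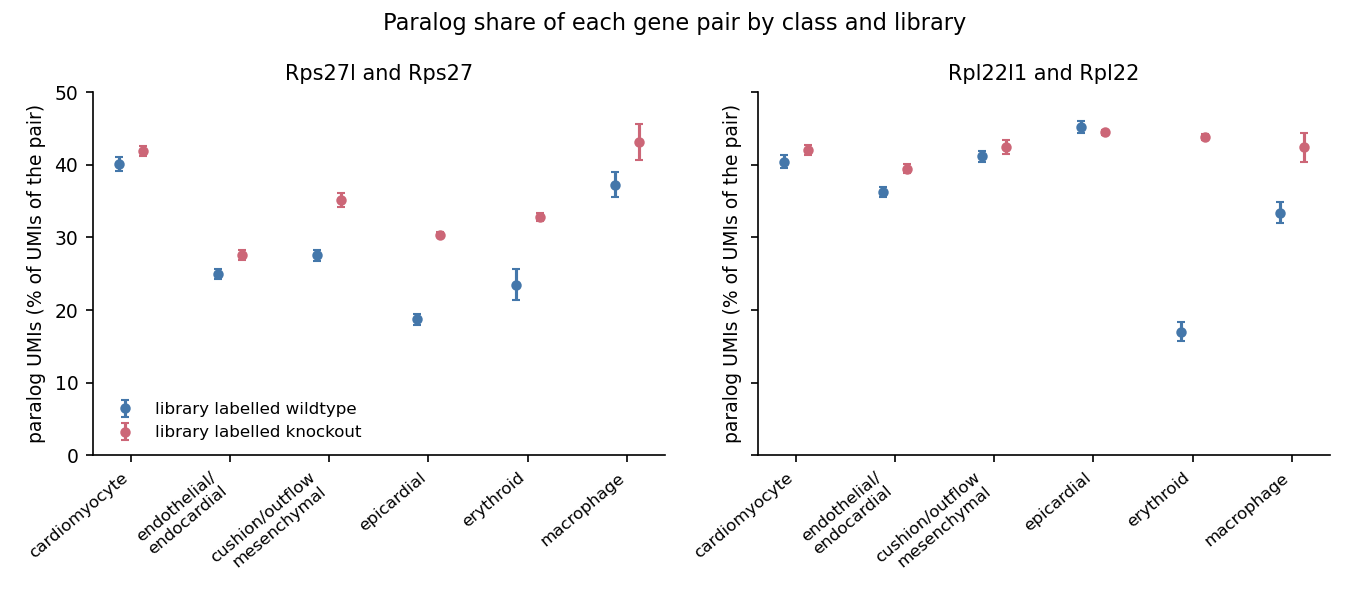
UMIs of Rps27l as a percent of Rps27l and Rps27 (left) and of Rpl22l1 as a percent of Rpl22l1 and Rpl22 (right), by class and library, with exact 95% counting intervals. Epicardial barcodes differed in the Rps27l share (18.7% and 30.3%) and erythroid barcodes in the Rpl22l1 share (17.0% and 43.9%).

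The remaining paralogs were close to undetected. Rpl3l, which replaces Rpl3 in mature striated muscle, had 4 and 12 UMIs in cardiomyocytes beside 14039 and 19468 of Rpl3, a share of 0.03% and 0.06% with overlapping intervals. Rpl10l had 0 UMIs beside 8562 and 11656 of Rpl10 there, which allows a share of up to 0.04% and 0.03%. Rpl39l, known from germ cells, had 15 and 20 UMIs in macrophages (5.27 and 22.0 CPM) and 4 and 54 UMIs in the small class of blood progenitor-gated barcodes (8.05 and 18.0 CPM), against at most 1.25 CPM in the other 5 main classes.

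Erythroid barcodes held the largest difference and the largest difference in content. Hemoglobin took a median of 83.3% of a barcode's UMIs in the library labelled wildtype and 47.9% in the library labelled knockout, and the former showed a median of 697 genes against 2733.5. All 81 ribosomal protein genes counted had a higher CPM in the library labelled knockout, with a median log2 ratio of 2.62, while the median of all genes was 1.75. With hemoglobin and mitochondrial UMIs out of the total, 66 of 81 were at least 1.5-fold higher beside 38.7% of all genes, and Rps2 and Rplp0 turned to -0.57 and -0.18. Relative to the median gene of the class 54 of 81 were higher beside 31.6% of all genes, and 1 was lower (Rps2, at -0.79) beside 32.1%. On that scale Rplp0, Rpsa and Rpl23a also fell below 0, at -0.40, -0.10 and -0.0083. Leaving hemoglobin out of the total, ribosomal protein UMIs made up 17.0% and 32.2%, a log2 ratio of 0.92. In shares of UMIs, more ribosomal protein RNA per cell and less of other RNA cannot be told apart.

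Barcodes were also compared in bands of hemoglobin content. In barcodes with 40% to 60% hemoglobin UMIs, ribosomal protein genes supplied 17.1% of the other UMIs in 35 barcodes labelled wildtype and 34.6% in 961 labelled knockout. From 60% to 80% the values were 19.7% (209 barcodes) and 34.0% (20 barcodes). From 20% to 40% they were 18.0% (22 barcodes) and 27.2% (157 barcodes). Under 20%, on 4 and 38 barcodes, they were close, at 20.7% and 20.9%. Over 80% there were 614 barcodes labelled wildtype, at 15.7%, and 0 labelled knockout. The share in the library labelled wildtype thus lay between 15.7% and 20.7%, and that in the library labelled knockout between 20.9% in the band with least hemoglobin and 34.6%. Depth was not matched in these bands: from 40% to 60% the median was 7328 UMIs against 20557. The minimum of 500 genes had already removed 3642 barcodes labelled wildtype, in which hemoglobin made up 88.7% of UMIs and ribosomal protein genes 13.0% of the rest. It removed 15 labelled knockout.

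**Figure D5:**
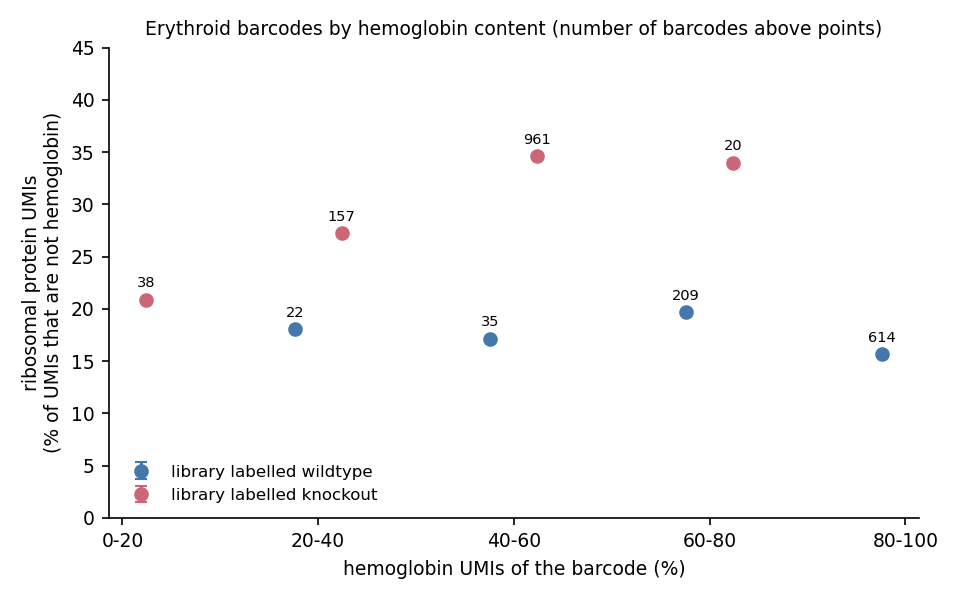
Ribosomal protein UMIs as a percent of UMIs that are not hemoglobin (vertical axis) in erythroid barcodes grouped by their percent of hemoglobin UMIs (horizontal axis), for both libraries. Numbers give the barcodes, groups under 20 are not drawn, counting intervals are smaller than the points, and in the group from 40% to 60% the values were 17.1% and 34.6%.

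The makeup of the ribosomal protein RNA also differed in erythroid barcodes. In the library labelled wildtype 3 genes stood out: Rps2 made up 4.28%, Rplp0 (chr5:115559467-115563727, plus strand) 4.22% and Rpsa (chr9:120127689-120132369, plus strand), also known as the laminin receptor, 4.0% of the UMIs of the group. In the other 5 classes of that library they made up 1.36% to 1.77%, 1.45% to 1.67% and 1.62% to 2.07%. In erythroid barcodes labelled knockout they made up 1.54%, 1.99% and 2.32%. The fold range of a gene's share of the group between classes was also ranked, by the library in which it was smaller. These genes, with Rpl23a and Rps27, then led the standard members. Within a single library others varied more than some of them. Rpl14 had 1.70 in the library labelled knockout, beside 1.55 for Rpsa, and Rpl3 had 2.63 in the other, beside 2.17 for Rpl23a.

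Within the library labelled wildtype the makeup followed hemoglobin from 40% upwards. Under 20% and from 20% to 40%, on 4 and 22 barcodes, Rps2 was at 2.55% and 1.86% of ribosomal protein UMIs. From barcodes with 40% to 60% hemoglobin to those over 80%, Rps2 went from 2.49% to 5.45% of ribosomal protein UMIs, Rplp0 from 2.24% to 5.43%, Rpsa from 2.52% to 4.89% and Rpl41 from 1.95% to 3.87%. Others went down the scale over the same bands: Rpl3 from 0.96% to 0.25%, Rps18 from 1.35% to 0.53% and Rpl22l1 from 0.30% to 0.09%. In barcodes labelled knockout between 20% and 60% hemoglobin, Rps2 stayed at 1.53% and 1.54% and Rps18 at 1.70% and 1.76%. Between the band from 20% to 40% and that from 60% to 80% (20 barcodes), however, all the genes named here moved the same ways in that library. Rpsa went from 2.32% to 2.60%, Rpl41 from 2.14% to 2.49%, Rpl3 from 0.87% to 0.65% and Rps18 from 1.70% to 1.55%. The removed barcodes of the library labelled wildtype had Rps2 at 6.37%. On the CPM scale the erythroid log2 ratios ran from 0.94 for Rps2 and 1.33 for Rplp0 to 3.50 for Rps25, the highest standard gene, and 4.21 for the paralog Rpl22l1. Relative to the median ribosomal protein gene of the class these were -1.68, -1.29, 0.88 and 1.59. Coding length gave a rho of -0.14 there.

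Of the other parts of the translation machinery, the genes that build ribosomes mostly lay above the median gene. Of 30 genes of ribosome biogenesis, 27 in cardiomyocytes, 28 in endothelial, 28 in mesenchymal and 29 in epicardial barcodes lay above the median of all genes, with list medians of 0.39, 0.37, 0.30 and 0.45. Past 1.5-fold were 2, 5, 3 and 9 of them, beside 10.8%, 6.78%, 8.97% and 14.6% of all genes. The count was thus below the share of genes at large in cardiomyocytes and near it in mesenchymal barcodes. None of the 30 was lower by as much in these classes, beside 10.4%, 17%, 21% and 20.7% of all genes. Nolc1, a nucleolar chaperone, stood at 0.61, 0.68, 0.38 and 0.88, and Npm1, which guides assembly in the nucleolus, at 0.62, 0.63, 0.38 and 0.45. In macrophages the median was 0.97 and 25 of 30 passed beside 16.5%, among them Nop56, a core protein of the methylating particles, with 1.23. In mesenchymal barcodes the list's median of 0.30 stood beside 0.10 for the ribosomal proteins and -0.06 for all genes.

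Genes of the mitochondrial ribosome, 78 in number, had medians of 0.04 in cardiomyocytes, 0.24 in endothelial, 0.35 in mesenchymal and 0.30 in epicardial barcodes. Their order over the classes differed from that of the cytosolic genes, which on this scale were highest in cardiomyocytes of these 4. Relative to the median gene of the class the cytosolic genes were highest in endothelial barcodes, at 0.42, against 0.31 in cardiomyocytes. The 14 other genes of translation with TOP starts had medians of 0.19, 0.15, -0.09 and 0.08. Each lay below that of the ribosomal proteins in the same class. Of the 14, 0 passed 1.5-fold in either direction in these 4 classes. Of all genes, many of them thinly counted, 10.8%, 6.78%, 8.97% and 14.6% were that much higher and 10.4%, 17%, 21% and 20.7% lower. Btf3, of the nascent chain complex, stood at 0.42, 0.29, 0.32 and 0.30. Tpt1, a TOP gene of growth control, was lower in the library labelled knockout in all 5 non-erythroid classes, at -0.15 to -0.41. The 14 genes of mTORC1 and TOP control had medians of -0.04, 0.03, -0.04 and 0.15. Among them Larp1 stood at 0.04, 0.03, 0.02 and 0.14, and Mtor at 0.04, 0.02, 0.11 and 0.11. Eif4ebp1 differed more, at -0.48, 0.27, 0.13 and 0.27, on 3720 and 3195 UMIs in cardiomyocytes. Mycn, a Myc family factor known to drive genes of ribosome synthesis, stood at -0.02, 0.74, 1.74 and 0.69. It had 38 and 61 UMIs in mesenchymal and 170 and 1294 UMIs in epicardial barcodes. Myc stood at -0.34, 0.22, -0.65 and 0.04, on 251 and 77 UMIs in mesenchymal barcodes, so these genes went opposite ways there. Deptor, an mTOR inhibitor, stood at -1.26 in endothelial barcodes, on 134 and 45 UMIs, and was too thinly counted to read in the other classes.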

How the data were processed

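Counts of UMIs per gene and barcode were deposited by the authors for all barcodes, made with Cell Ranger 7.1.0 on build mm10 per the submitters' processing notes, and are not normalised. The annotation release was not given in the sources used here. Barcodes with at least 3000 UMIs, at least 500 genes and at most 20% mitochondrial UMIs were kept. Of 12 marker lists, each barcode took the class with the highest mean z-score if it reached 0.5 and led the next by 0.3, a rule chosen after class sizes were seen. UMIs were summed per class and library, scaled to CPM over all UMIs of the class and compared as log2 ratios. Genes needed 20 UMIs in the class, and called means a ratio of at least 1.5. Shares have Clopper-Pearson, levels Poisson and ratios conditional binomial intervals. A count of 0 is given with the limit that 3 counts allow. Scripts were tested on simulated data with known ratios.

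Doublets were kept. The automatic threshold of Scrublet (scanpy 1.11.5) marked 2 of 7440 barcodes labelled wildtype (0.027%) and did not work there. As an alternative the highest scores were removed at 0.8% per 1000 barcodes (443 and 285). Coding lengths and positions are from GENCODE vM21 (GRCm38). The genes, lists and tests were chosen with earlier results of these data known. Named are the genes of the role lists, all paralogs, and the 5 highest and 5 lowest in each of 4 classes. Also named are the 10 with most UMIs, those past 1.5-fold in these 4 classes, and the 5 whose group share varied most between classes. That variation was ranked by the library in which it was smaller. Other alternatives were another UMI minimum, mitochondrial limit, thinning, totals without hemoglobin and mitochondrial UMIs, subtraction of free RNA, a stricter gate, other gene minimums and ratios relative to the median gene or member. Protein sequences were not used here, and a few genes that the rule names are not reported here.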

Additional observations from a re-analysis of the deposited data

Results flagged for a closer look

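Rpl39l and Rps4x had ratios of opposite sign in a pair of classes. Rpl39l stood at -2.39 on the log2 scale in epicardial barcodes (10 and 9 UMIs, 1.25 and 0.24 CPM) and at 2.06 in macrophages (15 and 20 UMIs, 5.27 and 22.0 CPM). The counts are small, and the macrophage value in the library labelled knockout rests on 39 barcodes. Rps4x, an X-linked gene of the small subunit, stood at -0.27 in epicardial barcodes (2714 and 2256 CPM) and at 0.28 in macrophages (1862 and 2262 CPM). With 1 library per group, neither difference between classes was tested.

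In barcodes of 10 to 100 UMIs, which hold free RNA and enter no class, ribosomal protein genes made up 12.7% of UMIs in the library labelled knockout (17689 barcodes, 1319882 UMIs) and 6.80% in the library labelled wildtype (6055 barcodes, 417550 UMIs). With this RNA subtracted from the classes, the log2 ratio of the share was 0.36 in cardiomyocytes and 2.47 in erythroid barcodes, against 0.37 and 2.42 without subtraction.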

How the results depend on the processing

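No paired analysis was possible because each group has 1 library. The log2 ratio of the ribosomal protein share stayed above 0 in the 6 classes under each alternative. Listed for cardiomyocyte, endothelial, mesenchymal, epicardial, erythroid and macrophage barcodes, it was 0.39, 0.38, 0.13, 0.20, 2.34 and 0.53 with barcodes thinned to 3000 UMIs. It was 0.31, 0.30, 0.060, 0.13, 0.90 and 0.40 with hemoglobin and mitochondrial UMIs out of the total, and 0.36, 0.33, 0.082, 0.17, 2.47 and 0.50 with free RNA subtracted. A stricter gate gave 0.32 in endothelial, 0.13 in mesenchymal, 0.18 in epicardial, 2.33 in erythroid and 0.48 in macrophage barcodes. Without the highest doublet scores epicardial barcodes gave 0.17, erythroid 2.48 and macrophages 0.51. A minimum of 6000 UMIs gave 0.34 in endothelial, 0.089 in mesenchymal, 0.19 in epicardial and 2.45 in erythroid barcodes, and a mitochondrial limit of 10% gave 0.18 in epicardial barcodes. Bands of depth and hemoglobin were chosen after the data were seen. From 6000 to 12000 UMIs the first 5 classes gave 0.37, 0.43, 0.12, 0.37 and 2.31, from 12000 to 24000 UMIs 0.39, 0.36, 0.17, 0.38 and 2.59, and macrophages had too few barcodes. Erythroid barcodes of 40% to 60% hemoglobin gave 1.04.

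With hemoglobin and mitochondrial UMIs out of the total, genes past 1.5-fold in cardiomyocytes were 8 in place of 15, beside 9.32% of all genes. In macrophages they were 13 in place of 33, beside 11.9%. Relative to the median gene of the class 8 of 80 (10%) were higher in cardiomyocytes, beside 9.58%. On that scale 17 of 80 (21.2%) were higher in endothelial barcodes beside 8.98%, and 1 was lower in erythroid barcodes beside 32.1%. Without a minimum of UMIs per gene 2 were lower in epicardial barcodes, against 0. The share of all genes was not computed at that setting. Of the erythroid values, Rps2 and Rplp0 turned to -0.57 and -0.18 with hemoglobin and mitochondrial UMIs out of the total. Relative to the median gene Rps2 was at -0.79, Rplp0 at -0.40, Rpsa at -0.10 and Rpl23a at -0.0083. Relative to the median ribosomal protein gene, a scale on which some genes must be negative, Rps2 was at -1.68, Rplp0 -1.29, Rpsa -0.99, Rpl23a -0.90, Rpl41 -0.68, Rplp1 -0.63, Rps3 -0.61, Rpl7 -0.55, Rps24 -0.52, Rpl38 -0.40, Rpl37a -0.39, Rps7 -0.33, Rpl13a -0.26, Rps4x -0.17, Rpl5 -0.15, Rps21 -0.11 and Rps29 -0.10. Macrophages labelled knockout, with 39 barcodes, had the fewest barcodes and the fewest summed UMIs (907245) of the classes compared. Their median barcode was deep, at 21172 UMIs against 9166 in macrophages labelled wildtype, and depth was not matched for this class.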

Other observations

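Smaller marker-gated classes were outside the main comparison. Megakaryocyte-like barcodes, 80 labelled wildtype and 159 labelled knockout, had ribosomal protein shares of 10.6% and 17.3%, a log2 ratio of 0.71. Smooth muscle-like barcodes (227 and 41) differed by 0.25 and neural or neural crest-like barcodes (56 in each library) by 0.20 on the log2 scale, which became 0.20 and 0.07 with hemoglobin left out. Within the megakaryocyte gate hemoglobin made up 15.6% and 1.06% of UMIs, and with hemoglobin left out the ratio was 0.48.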
